A study of Drosophila melanogaster with 17 samples.

Results

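The genes described here are 32 protein-coding genes of the fly that carry a FlyBase annotation number (CG plus digits) in place of a name and whose RNA was at least 4-fold higher in intestinal progenitor cells under Notch RNAi. They were chosen from the measured levels. In each of 3 microbiome conditions the group means, in counts scaled to a library total of 1e+06 with TMM factors (CPM), had to give a log2((Notch RNAi mean + 0.5)/(control mean + 0.5)) of at least 2. Of 17737 genes in the count table, 6043 had such a symbol, and 32 of these met the rule. Among the genes with other names, 93 met the same ratio, so that 0.705% of all genes did.

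RNA was sequenced from intestinal progenitor cells of adult virgin Drosophila melanogaster females, to compare Notch knockdown with controls under different gut bacteria. Flies spent 5 days at 25 °C, were kept germ-free or given Lactobacillus brevis or L. plantarum overnight, and then spent 5 days at 29 °C. Each library came from small GFP-positive cells sorted from 100 pooled guts, so a library is a pool of animals. Total counts ran from 24192918 to 38237532 per library.

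All 6 groups carried esgts, the label for the temperature-sensitive escargot driver, which acts in stem cells and their undifferentiated daughters. The 3 control groups had the genotype esgts and held no bacteria (n = 2), L. brevis alone (n = 3) or L. plantarum alone (n = 3). The 3 Notch RNAi groups had the genotype esgts/NRNAi under the same conditions (n = 3 each). The labels give neither the RNAi line nor an RNAi construct carried by the controls. A library was lost from the germ-free control group at RNA extraction.

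Notch is a receptor that passes signals between touching cells. In the fly midgut the ligand Delta on a stem cell activates Notch in its daughter, and strong signalling directs that daughter to become an enterocyte, the absorptive cell. Loss of Notch in progenitors is known to give masses of stem-like cells and enteroendocrine cells, the hormone-secreting cells of the gut. Most genes with only a CG number have no published function, so a role is given below for the few where it is known from the protein family.

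The label of the knockdown was checked on Notch itself (N). Its log2 fold change under Notch RNAi was -1.57 without bacteria, -1.32 under L. brevis and -1.72 under L. plantarum, and the groups did not overlap. Of 10 tested targets of Notch, 8 fell in the germ-free condition, 8 under L. brevis and 9 under L. plantarum, by edgeR's quasi-likelihood test at an adjusted p under 0.05. The target E(spl)m8-HLH rose instead, by 3.46, 3.18 and 2.02 on the log2 scale (adjusted p at most 0.00244). Of 26 mitosis genes, 24, 25 and 24 rose in those conditions. Of 21 enteroendocrine genes, 16, 13 and 16 rose and 2, 3 and 2 fell. Of all tested genes, 17.5%, 22.3% and 17.6% rose and 14.7%, 20.3% and 16.2% fell. Of 8 progenitor genes, 3, 4 and 4 rose and 3, 4 and 3 fell. Of 7 neuron genes, 3, 5 and 2 rose, and of 12 enterocyte genes, 5, 4 and 1 fell. No muscle gene of 12, and no ovary or eggshell gene of 3 tested, was called, and 2 of 4 fat body genes fell, under L. brevis alone. The scavenger receptor gene Sr-CI was the only haemocyte marker of 4 tested to rise, from 1.88 ± 0.767 CPM in germ-free controls (SD, n = 2) to 37.4 ± 5.59 under Notch RNAi (SD, n = 3), while Hml was at 0.107 ± 0.139 CPM in the latter. The haemocyte markers PPO1 and PPO2 were lower by the same test without bacteria, going from 2.43 ± 0.81 and 7.74 ± 3.13 CPM (SD, n = 2) to 0.131 ± 0.0196 and 0.0558 ± 0.0966 (SD, n = 3). In these sorted bulk samples, more cells of a type and more RNA per cell cannot be told apart.

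The values that chose the 32 genes are given first, as a description with no test. The log2 ratio had a median of 2.62 without bacteria (range 2.06 to 4.85), 2.91 under L. brevis (2.06 to 5.23) and 2.66 under L. plantarum (2.01 to 4.39). In each condition every Notch RNAi library of every one of the 32 genes lay above every control library of that condition, a pattern shown by 32% of 11786 tested genes without bacteria, 26.7% under L. brevis and 24.2% under L. plantarum. Over all conditions together, 31 of the 32 genes had no control library that reached a Notch RNAi library, against 9.91% of tested genes. All 32 were also called higher in each of the 3 contrasts, where 17.5%, 22.3% and 17.6% of tested genes were. Since the rule used these contrasts, nothing is read from those counts. The authors' deposited tables list all 32 as higher at a false discovery rate under 0.05 in the same 3 contrasts.

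**Figure D1:**
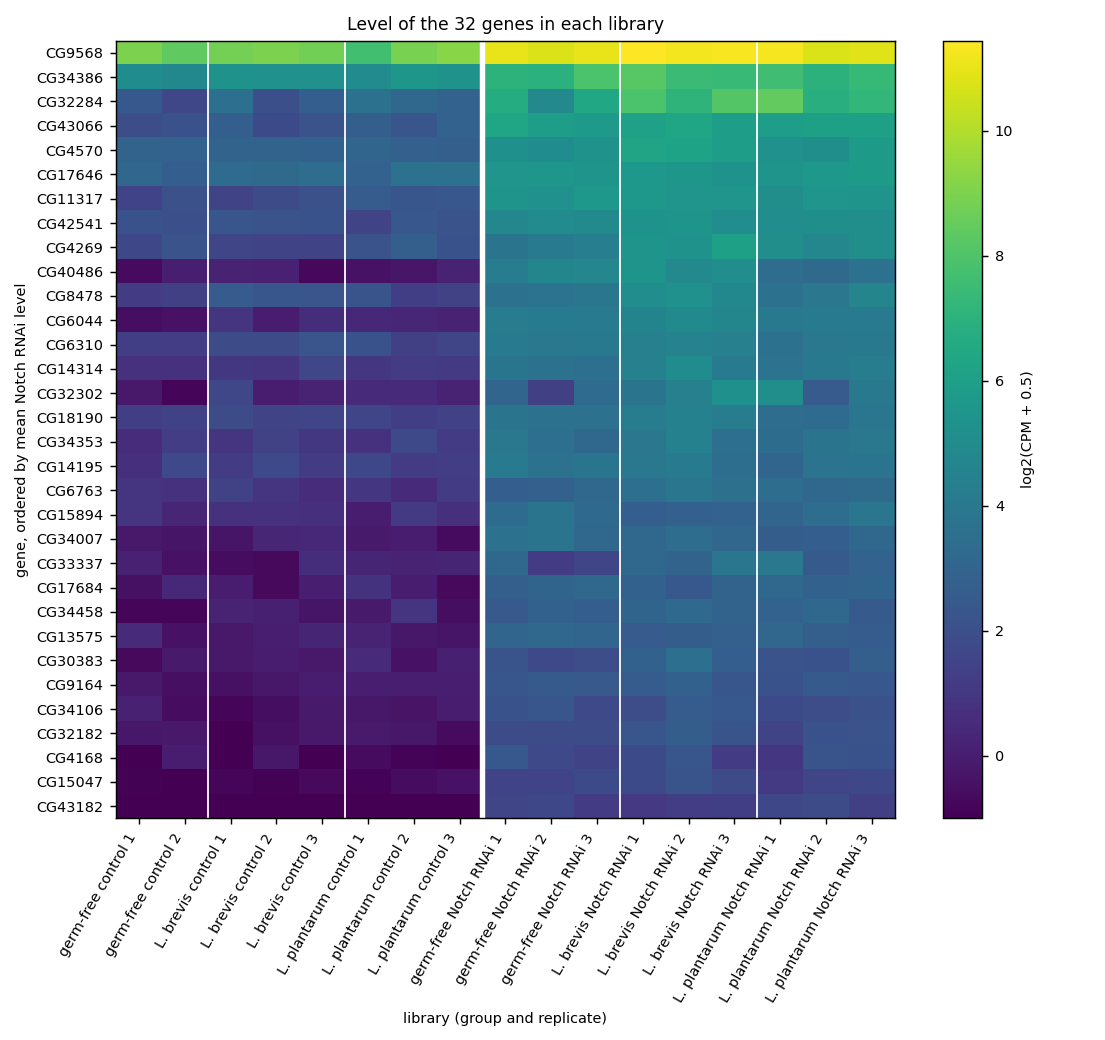
Level of each of the 32 genes (rows, ordered by mean Notch RNAi level) in each of the 17 libraries (columns), as log2(CPM + 0.5) on the colour scale. The thick white line separates the 8 control libraries on the left from the 9 Notch RNAi libraries on the right, and CG9568 is the brightest row on both sides.

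Many of the genes were at low levels in controls and at middling levels under Notch RNAi. The median gene had 1.27 CPM over the 8 control libraries and 14.0 CPM over the 9 Notch RNAi libraries, while the median tested gene had 16.5 and 17.6 CPM. In controls 15 of the 32 genes averaged under 1 CPM. Under Notch RNAi 14 genes averaged under 10 CPM, 15 lay between 10 and 100, and 3 lay above. All 32 passed edgeR's filter on low counts, and 14 of them were under 1 CPM in every control group.

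CG9568 (FBgn0032087, 2L:9010583-9011358 of the Ensembl BDGP6 annotation) had by far the highest level and supplied 71.7% of the summed Notch RNAi CPM of the set. Control libraries had 500.4 and 340 CPM without bacteria, 451.1, 502.8 and 447 under L. brevis, and 205.8, 490.2 and 601.4 under L. plantarum. Notch RNAi libraries had 2058, 1736 and 2060 CPM without bacteria, 2780, 2361 and 2562 under L. brevis, and 2459, 1711 and 1840 under L. plantarum. It was thus an abundant RNA already in control progenitors, and the lowest Notch RNAi library lay well above the highest control library. Only 0.348% of tested genes had a higher mean CPM under Notch RNAi. Per kilobase of exon it stood first of the 32 as well, at 3380 CPM per kb, followed by CG32284 at 363, CG34386 at 82.1, CG4570 at 40.2 and CG6310 at 25.1. The lowest was CG4168 at 0.532 CPM per kb.

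CG34386 (FBgn0085415, 2R:18062415-18093628) was the only other gene above 25 CPM in controls. Its control libraries had 33.19 and 27.51 CPM without bacteria, 39.91, 38.73 and 39.38 under L. brevis, and 31.69, 47.83 and 39.85 under L. plantarum. Its Notch RNAi libraries had 133, 122.6 and 237.5 CPM without bacteria, 291.1, 176.1 and 164.6 under L. brevis, and 197.5, 127.2 and 160.8 under L. plantarum. Library 3 was the high one in the germ-free Notch RNAi group and library 1 in the L. brevis group. This gene sat at the edge of the set, with a smallest log2 ratio of 2.01. The next genes inside were CG15894 at 2.061 and CG32182 at 2.064, and the nearest outside were CG42795 at 1.994, CG32091 at 1.967 and CG6329 at 1.944.

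CG40486 (FBgn0263830, X:22958856-22960091) had the largest log2 ratio of any member without bacteria, 4.85, and under L. brevis, 5.23, but 3.61 under L. plantarum. Control libraries held 0.1517 and 0.5183 CPM without bacteria, 0.641, 0.5929 and 0.09708 under L. brevis, and 0.2591, 0.3368 and 0.6502 under L. plantarum. Notch RNAi libraries held 18.37, 25.83 and 26.32 CPM without bacteria, 42.2, 28.38 and 33.97 under L. brevis, and 10.56, 9.255 and 12.14 under L. plantarum. The gene was barely detected in any control, and the 3 Notch RNAi groups did not overlap one another, with L. brevis highest and L. plantarum lowest. RefSeq lists FOHSDR as another symbol of this gene.

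CG32284 (FBgn0052284, 3L:3186664-3187245) kept the highest ratio of the set across conditions, its smallest being 4.11 without bacteria. Its Notch RNAi libraries had 104, 28.12 and 87.48 CPM without bacteria, 244.1, 136.4 and 279 under L. brevis, and 351.2, 113.9 and 149 under L. plantarum, against 2.592 to 12.18 CPM in the 8 control libraries. Replicates of a group thus differed widely, and library 2 was the lowest in each Notch RNAi group. It was 1 of 3 genes whose highest Notch RNAi library exceeded the lowest of the same group by more than 3-fold.

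The other such genes were CG32302 and CG33337, which differed by up to 6.43-fold and 5.06-fold. CG32302 (FBgn0052302, 3L:2268825-2269903) had 7.884, 2.037 and 9.556 CPM without bacteria, 13.47, 20.63 and 36.9 under L. brevis, and 34.54, 5.37 and 15.64 under L. plantarum. It was the exception to the full separation of the genotypes: germ-free Notch RNAi library 2 lay below L. brevis control library 1, which had 2.598 CPM. CG33337 (FBgn0053337, 3R:23590141-23592769) had 8.61, 1.702 and 2.532 CPM without bacteria, 8.465, 7.322 and 14.26 under L. brevis, and 15.55, 5.199 and 6.965 under L. plantarum. Across all 32 genes the median ratio of highest to lowest library was 1.38 within the germ-free Notch RNAi group. It was 1.4 within the L. brevis and 1.44 within the L. plantarum Notch RNAi group. CG4168 came next after these 3 genes, at up to 2.88-fold. Its fitted coefficient of variation between replicates, 90.3%, was the largest of the 32.

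Several genes were high under Notch RNAi at similar levels in all 3 conditions. CG43066 (FBgn0262476, 2R:18514574-18526439), listed by RefSeq also as Slc6a20, had 63.8 ± 14.9, 69.8 ± 10 and 64.7 ± 4.08 CPM in germ-free, L. brevis and L. plantarum Notch RNAi libraries (SD, n = 3 each). Its controls had 3.66 ± 0.377 (SD, n = 2), 4.4 ± 1.62 and 5.96 ± 1.25 CPM (SD, n = 3 each). CG17646 (FBgn0264494, 2L:1732524-1750612), an ATP-binding cassette transporter of the ABCG subfamily, ranged over the 9 Notch RNAi libraries from 41.9 to 54.21 CPM and over the 8 controls from 6.134 to 12.43. CG11317 (FBgn0039816, 3R:31090712-31097321) ranged from 34.39 to 48.86 CPM against 2.336 to 5.664, and CG42541 (FBgn0260658, X:3891497-3930578) from 26.36 to 42.57 against 2.406 to 4.716. For each of these genes the lowest Notch RNAi library lay far above the highest control library. Within a genotype some groups did not overlap, such as CG11317 in controls under L. brevis and L. plantarum (-0.68 on the log2 scale, SE 0.185, adjusted p = 0.0604 by edgeR) and CG42541 under Notch RNAi with L. brevis and without bacteria (0.41, SE 0.168, adjusted p = 0.133), but none of these differences was called.

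Lower in level but with ratios among the 8 largest were CG6044, CG34007 and CG14314. CG34007 (FBgn0054007, 2L:20495030-20495758) had 12.24, 13.5 and 8.681 CPM in germ-free Notch RNAi libraries, 8.433, 10.47 and 8.162 under L. brevis, and 5.799, 5.97 and 8.322 under L. plantarum, against 0.153 to 0.809 in controls. It was 1 of 3 genes, with CG13575 and CG4168, whose Notch RNAi mean was highest in germ-free flies. Below 10 CPM also lay CG6763, CG15894, CG33337, CG17684, CG34458, CG13575, CG30383, CG9164, CG34106, CG32182, CG4168, CG15047 and CG43182, each with at least 40 counts in every Notch RNAi library. The remaining genes between 10 and 100 CPM were CG34353 and CG14195.

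**Figure D2:**
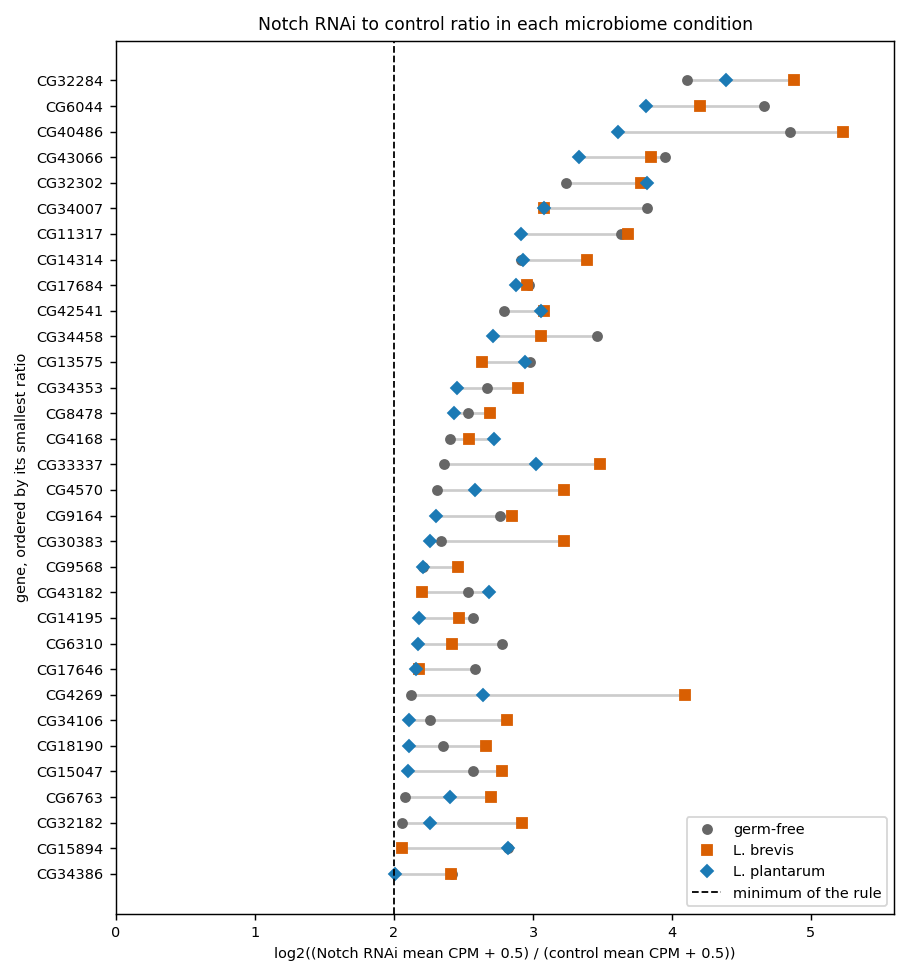
Log2 ratio of Notch RNAi to control group means (0.5 CPM added to each) for each of the 32 genes without bacteria (grey circles), under L. brevis (orange squares) and under L. plantarum (blue diamonds). The dashed line marks the minimum of 2, and CG40486, CG32284 and CG6044 reach the farthest to the right while CG34386 touches the line.

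The conditions differed in how often they held the extremes. The largest of the 3 ratios was the L. brevis ratio in 18 genes, the germ-free ratio in 11 and the L. plantarum ratio in 3. The smallest was the L. plantarum ratio in 19 genes. Under Notch RNAi the mean level was highest with L. brevis in 25 of 32 genes (78.1%), against 39.2% of tested genes. It was lowest without bacteria in 16, against 26.5%. The rule used these same means and ratios, so nothing is read from the counts. The widest span belonged to CG4269, whose log2 ratio was 2.12 without bacteria, 2.64 under L. plantarum and 4.09 under L. brevis. CG17684 had the narrowest, between 2.88 and 2.97.

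Comparisons of the bacteria within a genotype were not used by the rule, although it used the same libraries, and these were tested over all 11786 genes. Between L. brevis and germ-free flies under Notch RNAi, 6 of the 32 genes rose and 0 fell, or 18.8%, where 9.36% of all tested genes were called and 4.87% were called higher. The 6 were CG4269, CG4570, CG8478, CG14314, CG18190 and CG6763. The median log2 fold change of the 32 was 0.42, beside 0 for all tested genes and 0.49 for the 93 named genes past the same ratio, of which 25 rose. At an unadjusted p under 0.05 there were 13 of the 32, and 3023 of all 11786 tested genes. In controls, the median log2 fold change of the 32 against germ-free flies was 0.24 with L. brevis and 0.42 with L. plantarum. The medians of all tested genes there were 0.01 and 0.02. For L. plantarum against germ-free flies under Notch RNAi the 32 had a median of 0.03, beside 0 for all tested genes. The count of 6 dropped to 3 without germ-free Notch RNAi library 2 or 3 or without L. brevis Notch RNAi library 2. It was 10 when only the compared groups were fitted and 9 by DESeq2. The DESeq2 calls over all genes are given in the last section, and those of the compared groups alone are not given. Nothing is read from these larger counts. The authors' deposited table of this contrast lists 9 of the 32 as higher, and 11.8% of its genes at a false discovery rate under 0.05.

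CG4269 (FBgn0034741, 2R:22597245-22600695) showed the largest rise of the 6. Its germ-free Notch RNAi libraries had 13.13, 16.77 and 19.23 CPM and its L. brevis Notch RNAi libraries 42.33, 40.01 and 67.66, with L. plantarum between them at 34.39, 26.71 and 35.39. These 3 groups did not overlap. The log2 fold change of L. brevis against germ-free flies was 1.61 (SE 0.226, edgeR adjusted p = 0.0013). In controls the order was another: 2.76 and 4.017 CPM without bacteria, 2.53, 2.47 and 2.395 under L. brevis, and 4.072, 6.274 and 3.901 under L. plantarum. There L. brevis was lowest in every library, with a log2 fold change of -0.45 (SE 0.277, adjusted p = 0.331). The Notch RNAi effect itself differed by 2.06 (SE 0.354) between L. brevis and germ-free flies, a value made of those that chose the gene and not tested. Of its 1783 exonic bases, 291 are shared with CG4294 on the other strand, and CG4294 ranged only from 20.4 to 33.1 CPM between group means.

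CG4570 (FBgn0037844, 3R:10856807-10858066) is a gene of 1 exon. Under Notch RNAi it had 37.64, 33.14 and 41.87 CPM without bacteria, 75.45, 75.08 and 62.78 under L. brevis, and 38.82, 36.56 and 55.03 under L. plantarum. All L. brevis libraries lay above all others of the genotype. It rose by 0.92 on the log2 scale against germ-free flies (SE 0.144, adjusted p = 0.00204) and by 0.71 against L. plantarum (SE 0.143, adjusted p = 0.00876). In controls it was flat, between 6.196 and 7.737 CPM over all 8 libraries, with a log2 fold change of L. brevis against L. plantarum of 0.06.

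CG8478 (FBgn0037746, 3R:9763650-9766135) rose with L. brevis in both genotypes. Under Notch RNAi it had 12.57, 13 and 14.08 CPM without bacteria, 34.34, 39.35 and 27.85 under L. brevis, and 12.34, 14.88 and 24.58 under L. plantarum. In controls it had 1.729 and 2.03 CPM without bacteria, 5.533, 4.578 and 4.369 under L. brevis, and 4.146, 1.979 and 2.256 under L. plantarum. The L. brevis libraries were highest in each genotype and overlapped no other group of that genotype. The log2 fold change of L. brevis against germ-free flies was 1.36 under Notch RNAi (SE 0.258, adjusted p = 0.00603) and 1.36 in controls (SE 0.326, adjusted p = 0.0233). Against L. plantarum under Notch RNAi it was 0.97 (SE 0.255, adjusted p = 0.0252). That call was lost in 5 of 12 alternatives, where the adjusted p reached 0.107. The call in controls was lost in 4 of 11 alternatives, with an edgeR adjusted p of up to 0.141. Leaving out either germ-free control library was among these.

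CG14314 (FBgn0038581, 3R:18216142-18218014) had 13.72, 11.8 and 11.33 CPM in germ-free and 21.61, 32.38 and 17.67 in L. brevis Notch RNAi libraries, a log2 fold change of 0.96 (SE 0.230, adjusted p = 0.0184). The groups did not overlap, and library 2 was the highest with L. brevis. Without that library the call was lost, as it was without germ-free Notch RNAi library 2 or 3, with an adjusted p of up to 0.109. CG18190 (FBgn0034403, 2R:18851907-18853043) encodes a relative of EB1, a protein that tracks the growing plus ends of microtubules. It had 13.23, 12.36 and 12.24 CPM without bacteria, 19.14, 21.59 and 18.99 under L. brevis, and 10.23, 9.826 and 14.29 under L. plantarum. Its L. brevis libraries were all above the rest, with log2 fold changes of 0.66 against germ-free flies (SE 0.160, adjusted p = 0.0196) and 0.80 against L. plantarum (SE 0.161, adjusted p = 0.00876). The first of these calls was lost in 4 of the 6 fits that left out a library, with an adjusted p of up to 0.0875.

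CG6763 (FBgn0039069, 3R:23284002-23286041) was the weakest of the 6 calls. It had 6.103, 6.64 and 8.44 CPM in germ-free and 11.19, 14.34 and 11.7 in L. brevis Notch RNAi libraries. The libraries did not overlap, and the log2 fold change was 0.81 (SE 0.246, adjusted p = 0.0493). The call was lost on leaving out any 1 of the 6 libraries, and the adjusted p reached 0.179 over the alternatives.

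**Figure D3:**
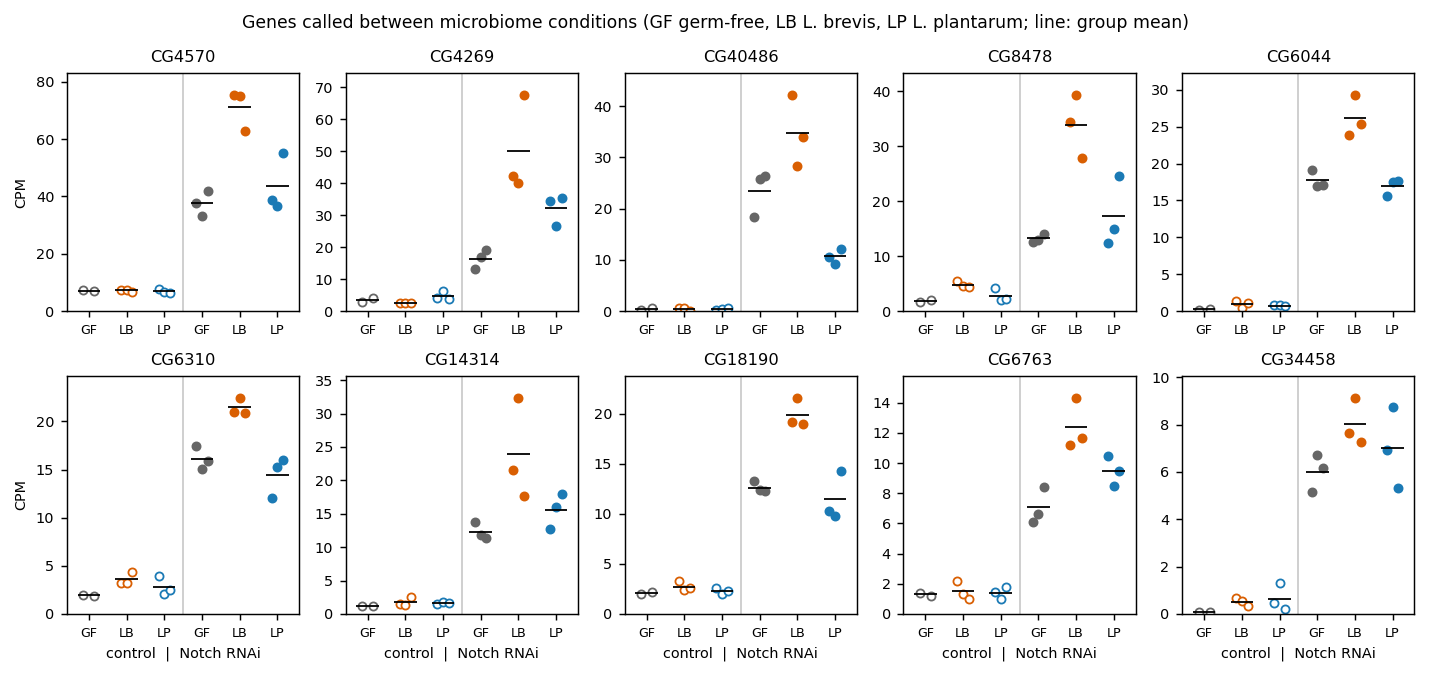
CPM of the 10 genes called between microbiome conditions, by library (points) with the group mean (line), in germ-free (GF, grey), L. brevis (LB, orange) and L. plantarum (LP, blue) flies. Controls are open circles on the left of each panel and Notch RNAi libraries are filled circles on the right, where the L. brevis libraries of CG4570, CG8478 and CG18190 lie above all others.

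Between L. brevis and L. plantarum under Notch RNAi, 4 of the 32 genes rose and 0 fell, or 12.5%. Of tested genes, 14.4% were called and 7.36% were called higher. Of the 93 named genes past the same ratio, 24 rose and 0 fell. The 4 were CG4570, CG8478, CG18190 and CG40486. CG40486 differed most, with a log2 fold change of 1.71 (SE 0.347, adjusted p = 0.00985). The count became 0 without L. plantarum Notch RNAi library 2, where the edgeR adjusted p of CG4570, CG18190 and CG40486 was at most 0.0586. By DESeq2 the count was 8. The DESeq2 calls over all genes are not given here for this comparison, so nothing is read from that count. The authors' deposited table lists 6 of the 32 as higher, and 17.6% of its genes at a false discovery rate under 0.05. This comparison shares its L. brevis libraries with the previous one. CG15894 lay in the other direction, at -0.73 (SE 0.311, adjusted p = 0.12), with 6.028, 6.567 and 7.042 CPM under L. brevis and 7.794, 10.25 and 14.47 under L. plantarum. Those 2 groups of CG15894 did not overlap.

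Between L. plantarum and germ-free flies under Notch RNAi, 0 of the 32 genes were called by edgeR, where 0.136% of tested genes were. At an unadjusted p under 0.05 there were 4, and 1250 of all 11786 tested genes. DESeq2 called 2, and its counts over all genes are given in the last section. The smallest adjusted p belonged to CG4269, with a log2 fold change of 0.97 (SE 0.223, adjusted p = 0.114). CG40486 had the most negative value, -1.14 (SE 0.343, adjusted p = 0.267). For each of these genes the libraries of the 2 groups did not overlap. The authors' deposited table of this contrast lists CG4269 as higher and CG40486 as lower, and 0.961% of its genes at a false discovery rate under 0.05.

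Marker genes also moved with L. brevis under Notch RNAi. Between L. plantarum and germ-free flies under Notch RNAi, no gene of any marker list was called, where 0.136% of tested genes were. The summed CPM of the 26 mitosis genes was 600 to 752.8 in germ-free, 665.5 to 859.7 in L. plantarum and 973.4 to 1221 in L. brevis Notch RNAi libraries. The L. brevis libraries were the highest without overlap. Of the 26 genes, 17 rose against germ-free flies and 18 against L. plantarum, with 0 lower. Of all tested genes, 4.87% and 7.36% rose. The 21 enteroendocrine genes did not move together. Orcokinin, a neuropeptide gene that made up most of their sum, had 34800 to 47130 CPM in germ-free, 25310 to 31600 in L. plantarum and 10570 to 22320 in L. brevis libraries. The other 20 summed to 6440 to 7238, 5878 to 6062 and 6556 to 6694 CPM in the same order. Against germ-free flies, 2 of the 21 rose with L. brevis, CCHa1 and Dh31, and 6 fell, namely NPF, AstC, Orcokinin, tap, amon and 7B2. Of all tested genes, 9.36% were called there in either direction. No mitosis or enteroendocrine gene was at 0 in all libraries. Of 10 tested Notch targets, 3 rose with L. brevis against germ-free flies and 0 fell. Of 8 progenitor genes, Delta and spdo rose and Sox100B fell. Against L. plantarum, 3 Notch targets rose and klu fell, and N itself was called higher. N had 71.29 to 82.88 CPM under L. brevis, 52.75 to 62.78 under L. plantarum and 63.48 to 67.49 without bacteria. The part of these genes in the values of the 32 was not tested.

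**Figure D4:**
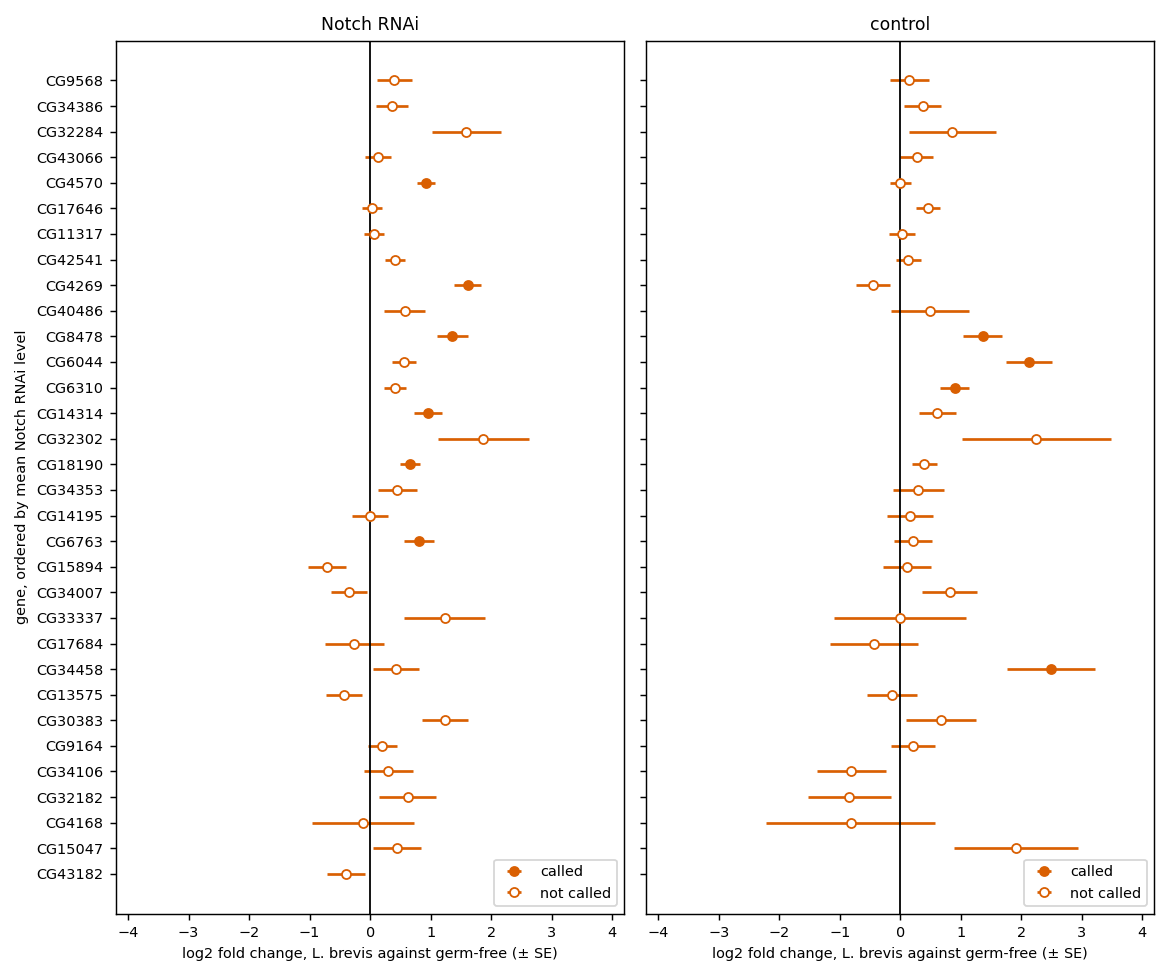
Log2 fold change of L. brevis against germ-free flies (± SE) for the 32 genes under Notch RNAi (left) and in controls (right), with called genes filled; CG43182 is left out on the right because it had no counts in controls. The log2 fold change was above 0 for 26 of the 32 genes under Notch RNAi and for 25 in controls. The median of all tested genes was 0 and 0.01. CG4269 lies at 1.61 on the left and at -0.45 on the right.

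In controls, L. brevis against germ-free flies gave 4 of the 32 genes higher and 0 lower, or 12.5%. Of tested genes, 7.97% were called and 5.01% were called higher. Of the 93 named genes past the same ratio, 15 rose and 4 fell. CG43182, with no counts in controls, could not be called in any control comparison. The 4 higher members were CG8478, CG6044, CG6310 and CG34458. The germ-free control group has 2 libraries. Leaving out either of them, or fitting the compared groups alone, left 0 of the 4 calls of members. Leaving out L. brevis control library 1 left 1.

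CG6044 (FBgn0034725, 2R:22404177-22408540) had 0.182 and 0.2592 CPM in germ-free controls and 1.316, 0.4611 and 1.068 in L. brevis controls, a log2 fold change of 2.12 (SE 0.381, adjusted p = 0.0084). Under Notch RNAi it stood at 19.1, 16.99 and 17.12 CPM without bacteria, 23.92, 29.31 and 25.33 under L. brevis, and 15.66, 17.54 and 17.64 under L. plantarum. The L. brevis libraries did not overlap the germ-free ones in either genotype. CG34458 (FBgn0085487, 2R:16672033-16672889), listed by RefSeq also as SP118, had 0.091 and 0.08639 CPM in germ-free controls and 0.6747, 0.5599 and 0.3236 in L. brevis controls, a log2 fold change of 2.49 (SE 0.721, adjusted p = 0.0459). At so low a level that rise rests on few counts, 3 and 2 in germ-free and 20, 17 and 10 in L. brevis controls. For CG6044 the counts were 6 and 6 against 39, 14 and 33.

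CG6310 (FBgn0036121, 3L:11069043-11069864) had 2.002 and 1.857 CPM in germ-free controls and 3.205, 3.228 and 4.401 in L. brevis controls, a log2 fold change of 0.90 (SE 0.237, adjusted p = 0.032). Its L. brevis values were all above the germ-free values. L. brevis control library 3 had a summed CPM of 1036 for the 12 muscle genes, against at most 427.3 in any other library. The 32 genes had log2 ratios of that library to the other L. brevis controls between -0.9 and 1.24, with a median of -0.06. The part of muscle RNA in these values was not tested.

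The other control comparisons gave no call among the 32 by edgeR. For L. plantarum against germ-free flies the count was 0, where 0.161% of tested genes were called. It was 7 at an unadjusted p under 0.05, where 1709 of 11786 tested genes were, and 2 by DESeq2. The smallest adjusted p was 0.0735, for CG6044, whose log2 fold change was 1.76 (SE 0.394). For L. brevis against L. plantarum the count was 0, where 2.81% of tested genes were called. It was 3 at an unadjusted p under 0.05, where 2519 of 11786 tested genes were, and 2 by DESeq2. CG4269 was closest, at -0.94 (SE 0.247, adjusted p = 0.0529), and leaving out L. plantarum control library 1 brought the count to 3. The authors' deposited tables list CG6044 and CG34458 as higher in the first of these comparisons, with 1.37% of genes at a false discovery rate under 0.05, and CG4269 and CG11317 as lower in the second, with 5.13%. In all, 22 of the 32 genes were called in no comparison of bacteria. The share of all tested genes called in none was not counted, so nothing is read from this number.

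The 32 genes were scattered over the genome, with 5 on chromosome arm 2L, 9 on 2R, 4 on 3L, 7 on 3R and 7 on X. No pair lay within 20 kb, and the nearest, CG6044 and CG4269, lay 188705 bp apart. Their median coding length was 945 bp, against 1080 bp for all tested CG-numbered genes, and 18.8% had 1 exon against 13.8%.

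Some immediate neighbours were higher too. Of 50 tested genes that adjoin a member and are not members, 9 were called higher in all 3 Notch RNAi contrasts (18%) and 4 lower (8%), where 10.9% and 9.07% of all tested genes were. The 9 were Pepck2, CG2938, lncRNA:CR45502, CG40485, CG3823, CG42240, CG34457, phr and y. When a mean count of at least 50 was required, 4 were called. That filter leaves lncRNA:CR45502, CG40485, CG3823, CG34457 and y untested, which lowers the count by itself.

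The gene phr, which encodes a DNA photolyase, lies 147 bp from CG30383 (FBgn0050383, 2R:7823943-7825141). CG30383 had 2.873 to 4.123 CPM in germ-free, 6.022 to 11.27 in L. brevis and 3.942 to 6.299 in L. plantarum Notch RNAi libraries, against at most 0.9625 in controls. Its neighbour phr was much more abundant, at 133.4 ± 2.62, 147 ± 3.62 and 122.3 ± 4.5 CPM under Notch RNAi (SD, n = 3 each) against 8.89 ± 0.421 (SD, n = 2), 12.9 ± 1.43 and 11 ± 0.354 in controls (SD, n = 3 each). Its log2 fold changes were 3.91, 3.51 and 3.47, with edgeR adjusted p-values of at most 1.54e-12. Both genes were higher in every Notch RNAi library than in any control library. The use of strand in the counting is not given in the sources used here.

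Pepck2, a phosphoenolpyruvate carboxykinase gene of the gluconeogenic pathway, lies 990 bp from CG43066. It had 63 ± 10.1, 123.3 ± 17 and 79.5 ± 16.4 CPM in germ-free, L. brevis and L. plantarum Notch RNAi libraries (SD, n = 3 each), and log2 fold changes over controls of 2.74, 4.11 and 3.44 with edgeR adjusted p-values of at most 0.000478. CG43066 had a flat profile across the same 3 groups, so the neighbours differed in their order across conditions. Beside CG40486 lie lncRNA:CR45502 at 28 bp and CG40485 at 517 bp. CG40485 had 2.09 ± 0.494, 2.6 ± 0.904 and 1.55 ± 0.429 CPM in the same order (SD, n = 3 each), with L. plantarum lowest in mean as for CG40486.

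**Figure D5:**
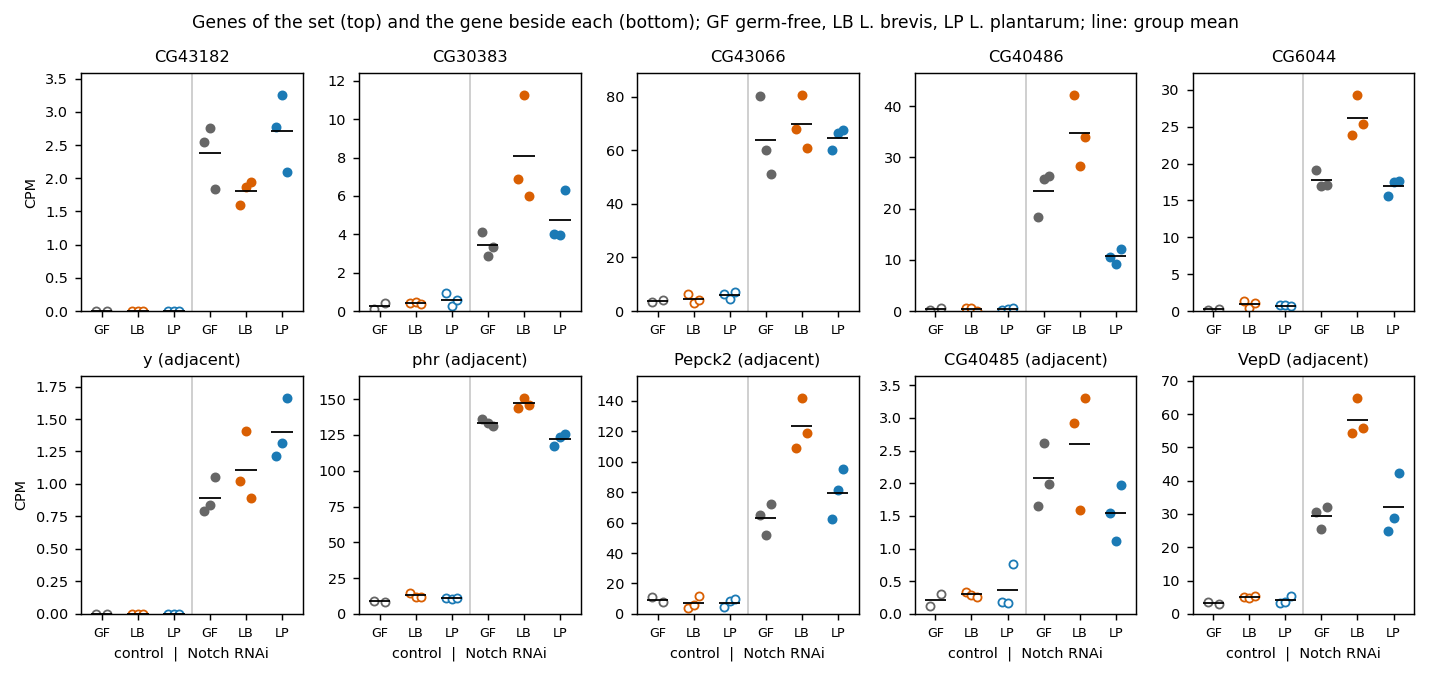
CPM by library (points) and group mean (line) for 5 of the 32 genes (top) and the gene beside or overlapping each (bottom), in germ-free (GF), L. brevis (LB) and L. plantarum (LP) flies. Open circles are controls and filled circles Notch RNAi libraries; CG43182 and y lie at 0 in every control, and phr reaches 151 CPM.

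CG43182 (FBgn0262811, X:353067-353317) was the only one of the 32 genes with 0 counts in all 8 control libraries, and it had 710 counts in the 9 Notch RNAi libraries, at 1.603 to 3.256 CPM. Against a floor of 3 counts over each control group, its level was at least 44.5-fold higher without bacteria, 54.6-fold under L. brevis and 69.4-fold under L. plantarum. The gene yellow (y), needed for dark pigment of the cuticle, lies 3191 bp away and was likewise at 0 in all 8 controls, with 357 counts in the Notch RNAi libraries. Further features of the same stretch, CG43181, lncRNA:yar, ac and lncRNA:CR44751, had 0 counts in controls and 3, 6, 7 and 1 counts under Notch RNAi. The genes sc and ase, farther along the chromosome, were detected in all 8 controls, with 533 and 131 counts, as was CG32816, which spans the stretch, with 86. Both genes of the stretch that were measurable under Notch RNAi thus had no control reads at all. The knockdown and any other difference in genetic background between the lines cannot be told apart here.

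Reads of 9 of the 32 genes are uncertain because an exon overlaps that of another gene, a share of 28.1% against 41.7% of tested CG-numbered genes. CG34106 (FBgn0083942, 2L:17131024-17173118) lies wholly within exons of beat-IIIa on the same strand, and the 2 genes had identical counts in every library, so they cannot be told apart. They had 2.834 to 5.561 CPM under Notch RNAi and at most 0.6067 in controls. CG33337 shares 2066 of its 2127 exonic bases with the antisense RNA asRNA:CR46469, which is not analysed here. CG6044 shares 16 bases with VepD on the same strand, and VepD was higher by 3.19, 3.55 and 2.98 on the log2 scale, with edgeR adjusted p-values of at most 3.43e-07. The others were CG4269, CG8478, CG6763, CG18190, CG32302 and CG17684, with 23 to 291 shared bases.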

How the data were processed

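Raw read counts per gene came from the table deposited by the authors, in which all 17 columns matched a library by name. The log2 fold changes and the p-values and false discovery rates of 8 comparisons, each over 10201 genes, were computed by the authors, per the file headers. The submitters' processing notes name FastQC, Trimmomatic, HISAT2, SAMtools and edgeR; the build, annotation, counting tool and use of strand are not given in the sources used here. Symbols matched 17599 of 17737 identifiers. Positions and overlaps are those of the Ensembl BDGP6 annotation and may differ from the authors' build.

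Tests on these counts used edgeR 4.0.16 under R 4.3.3. The filterByExpr function kept 11786 genes with 99.98% of the counts. Libraries were scaled by the trimmed mean of M-values (TMM), and all 17 entered 1 quasi-likelihood fit with a mean per group, so the germ-free control group of 2 shared the spread of all groups. P-values were adjusted over all tested genes (Benjamini-Hochberg), and called means an adjusted p under 0.05. The fit was tested on simulated data. DESeq2 1.42.0, other scalings, filters and sample sets were tried as alternatives. Floors cover counting error only.

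The 32 genes, marker lists and naming rule were chosen with earlier results of these data known. The text names the genes with the highest levels, the largest smallest ratios, a call between conditions of bacteria, values next to the threshold, overlapping exons or no control counts. CG30383, the genes next to members and the genes in the overlaps were named after their values were seen. Similarity between proteins was not analysed here. No 2 replicates were alike within sampling noise (chi-square over degrees of freedom at least 29.7). Libraries that shared a replicate number correlated only weakly between groups.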

Additional observations from a re-analysis of the deposited data

Results flagged for a closer look

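CG4269 stood out because its L. brevis libraries lay on opposite sides of the compared libraries in the 2 genotypes. Against germ-free flies, the log2 fold change was 1.61 in Notch RNAi and -0.45 in control libraries, and no library of the compared groups overlapped. Against L. plantarum, it was 0.64 in Notch RNAi and -0.94 in control libraries, again without overlap. Of these 4 values, only the first was called by edgeR. The adjusted p of the others was 0.331, 0.0633 and 0.0529 in the order given, so a lower level with L. brevis in controls did not pass the test. The difference between the genotypes was not tested, because it is made of the values that chose the gene. The 2 comparisons share their L. brevis libraries.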

How the results depend on the processing

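The number of genes that met the rule was 57 with a pseudocount of 0.1 and 18 with 1. It ranged from 30 to 34 when libraries were left out in turn, and 22 genes were kept in every such run. Calls among the 32 genes depended on the fit, and the cause was not tested. With DESeq2 they numbered 2 for L. plantarum against germ-free flies and 8 for L. brevis against L. plantarum under Notch RNAi, and 2 for each of these in controls. With only the compared groups fitted, L. brevis against germ-free flies gave 10 under Notch RNAi and 0 in controls. The calls over all genes beside that 10, and beside the 8 by DESeq2, are not given here. Nothing is read from either count. For L. brevis against L. plantarum in controls, a mean count of at least 50 gave 2.

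Leaving out libraries gave 3 to 5 calls for L. brevis against germ-free flies and 0 to 5 for L. brevis against L. plantarum under Notch RNAi. In controls it gave 0 to 3 for L. brevis against germ-free flies, 0 to 1 for L. plantarum against germ-free flies, and 0 to 3 for L. brevis against L. plantarum. Of 14 calls of single genes, 3 held under every alternative: CG4269, CG4570 and CG8478 for L. brevis against germ-free flies under Notch RNAi. No value reversed.

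Over all genes, under Notch RNAi, DESeq2 called 1670 for L. brevis and 155 for L. plantarum against germ-free flies. In controls it called 1446, 316 and, for L. brevis against L. plantarum, 859. With the compared groups alone, L. plantarum against germ-free flies gave 1 under Notch RNAi. In controls that fit gave 0 and 1 against germ-free flies and 6 for L. brevis against L. plantarum. Leaving out libraries gave 326 to 965 calls for L. brevis and 0 to 19 for L. plantarum against germ-free flies, and 250 to 1649 between the bacteria, under Notch RNAi. In controls these ranges were 35 to 1102, 0 to 44 and 2 to 1292. Notch RNAi against control in germ-free flies ranged from 2428 to 3268. The neighbours called higher numbered 4 with a mean count of at least 50, a filter that leaves low-count neighbours untested. They numbered 6 to 10 when libraries were left out.

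Libraries that shared a replicate number correlated only weakly between groups: 7 of 40 pairs correlated above 0.1, with r from -0.147 to 0.181. Whether such libraries were prepared together is not given in the labels. With a replicate block, 1 of the 32 genes was called for L. brevis against L. plantarum in controls and 37 of all genes for L. plantarum against germ-free flies under Notch RNAi. Low counts limit the genes under 1 CPM in controls.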
